A study of Mus musculus with 12 samples.

Results

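This account concerns 6 imprinting genes in mouse embryonic stem cells and in the 2-cell-like cells sorted from them: Meg3, Rian, Mirg, Rtl1 and Dlk1 of the Dlk1-Dio3 cluster, and Zfp57, which keeps imprints methylated. They were chosen by name and make up 6 of the 55266 genes in the count files. Of the 6, 5 had at least 10 counts in at least 2 libraries and were tested among 19384 genes. Dlk1 had 7 counts over all libraries and was not tested. The series asked how hyperosmotic stress produces 2-cell-like cells, which are rare stem cells that switch on genes of the 2-cell embryo. RNA was taken from E14 mouse embryonic stem cells, an established line, after 0, 6 or 24 h with sorbitol, a sugar alcohol that raises osmolarity.

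All 12 libraries came from E14 cells with the genotype 2C::3xtbGFP, a turboGFP (tbGFP) reporter named for the 2-cell state. The 6 groups, each of 2 libraries, were tbGFP-positive cells at 0, 6 and 24 h and tbGFP-negative cells at 0, 6 and 24 h. The cells had been plated without their kinase inhibitors for 48 h, and 50000 cells were sorted for each library. The sorbitol dose and whether the reporter line is 1 clone are not given in the sources used here. Cells held for the same hours without sorbitol are not among the groups, so sorbitol and hours of culture cannot be told apart. Sorting followed the treatment, and cells of a fraction at 6 h or 24 h may have been in the other fraction before. Nothing in the labels says that the libraries of a group came from separate cultures, so p-values measure the spread between these libraries, which may be technical.

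In the mouse Dlk1-Dio3 cluster the noncoding RNAs Meg3, Rian and Mirg are made from the maternal copy, as parts of long transcripts that carry small nucleolar RNAs (snoRNAs) and microRNAs. The protein-coding genes Dlk1, Rtl1 and Dio3 are made mainly from the paternal copy, whose intergenic control region is methylated. ZFP57 is a zinc finger protein that binds the methylated hexamer TGCCGC at imprinted control regions and, with TRIM28, keeps them methylated, and loss of Meg3 expression is known to mark stem cell lines with poor developmental potential.

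The libraries held 2306870 to 7900178 counts, and 3 counts corresponded to 0.380 to 1.30 CPM of the library total, where CPM is the usual scaling of a count to its library's depth. Every level given here is in CPM scaled with TMM factors. The 13 markers of 2-cell-like cells summed to 37444 to 63456 CPM in tbGFP-positive libraries and to 17.2 to 917 CPM in tbGFP-negative libraries, where they reached 863 to 917 CPM at 24 h. The 10 markers of pluripotent cells summed to 6884 to 10704 CPM in all groups, and 10 of 10 were detected in each. Of the 10 fibroblast markers, which would show feeder cells, Postn, Fbn1 and Twist2 were at 0 in every library and the list summed to 6.47 to 32.3 CPM. At 0 h the mesoderm markers summed to 44.2 to 92.7 CPM in tbGFP-positive libraries, against 6.36 to 12.3 CPM in tbGFP-negative libraries. The trophectoderm markers summed to 89.0 to 162 CPM, against 47.1 to 53.8 CPM, and these lists share Eomes and Hand1. The neural markers summed to 104.5 to 150.5 CPM, against 72.5 to 102.7 CPM. The primitive endoderm markers went the other way, with 124 to 155 CPM, against 199 to 200.1 CPM. Their part in the differences described here was not tested. In bulk RNA, fewer cells that express a gene and less RNA in each cell cannot be told apart.

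The files count reads per transcript. Of 35033 transcripts with no exonic base of their own, 21 had counts, and of 419 whose own bases all lie under genes of the opposite strand, 12 had counts, against 42233 of 53842 transcripts with at least 300 bases of their own on either strand. Counts therefore rest on the bases that a transcript shares with no other on either strand, and reads of Rtl1 and of RNA made from the opposite strand of Rtl1, where the annotation places microRNA genes, cannot be told apart. Dlk1 had 908 such bases, Zfp57 1368, Mirg 2841, Rtl1 5824, Meg3 12058 and Rian 12680, and levels are not compared between genes.

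The start of Meg3 is shown as a promoter of the cluster that was searched for the ZFP57 hexamer. The intergenic control region named above was not searched, and nothing here shows that ZFP57 binds this window. RefSeq lists 2 promoter windows for Meg3, each of 300 bases, 250 before a start and 50 after it, on the plus strand of GRCm38.p6. The upstream one, at chr12:109540746-109541045, is printed because it alone among the windows found for the members holds the hexamer. Capitals mark GCGGCA, the reverse complement of TGCCGC.
Meg3: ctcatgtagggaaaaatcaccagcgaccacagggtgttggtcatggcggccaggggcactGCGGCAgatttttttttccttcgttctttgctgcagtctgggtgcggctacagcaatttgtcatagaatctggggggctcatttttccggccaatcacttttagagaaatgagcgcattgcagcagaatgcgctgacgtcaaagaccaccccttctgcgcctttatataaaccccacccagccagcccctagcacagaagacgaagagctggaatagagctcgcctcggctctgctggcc
The window holds 1 match and 13 CpG sites. The other Meg3 window, at chr12:109545148-109545447, holds 0 matches and 1 CpG site, and the windows found for Dlk1, Rian, Mirg and Zfp57 hold 0 matches. TGCCGC or its reverse complement, searched on both strands, was present in 3813 of 32851 RefSeq promoter windows of this length, or 11.6%. These RNA data carry no reading of methylation there.

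The cluster also holds 67 annotated microRNA genes. Shown are RefSeq mature microRNAs of 3 hairpins whose counts differed between fractions, Mir3070b, Mir654 and Mir453, and 2 relatives with a shared seed, from Mir3070a and Mir496a. Capitals mark the seed, bases 2 to 8.
mmu-miR-3070-2-3p: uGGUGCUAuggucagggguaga
mmu-miR-3070-3p: uGGUGCUAccgucagggguaga
mmu-miR-654-3p: uAUGUCUGcugaccaucaccuu
mmu-miR-654-5p: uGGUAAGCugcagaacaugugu
mmu-miR-453: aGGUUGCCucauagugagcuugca
mmu-miR-496a-5p: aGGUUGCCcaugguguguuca
The 2 forms of miR-3070 share the seed GGUGCUA, and miR-453 and miR-496a-5p share GGUUGCC. Of the 20 microRNA genes with enough counts to test, 18 matched a RefSeq entry, with 34 mature sequences and 30 different seeds. The libraries were made from long total RNA, so reads on a hairpin come from precursor transcripts and not from mature microRNAs.

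**Figure D1:**
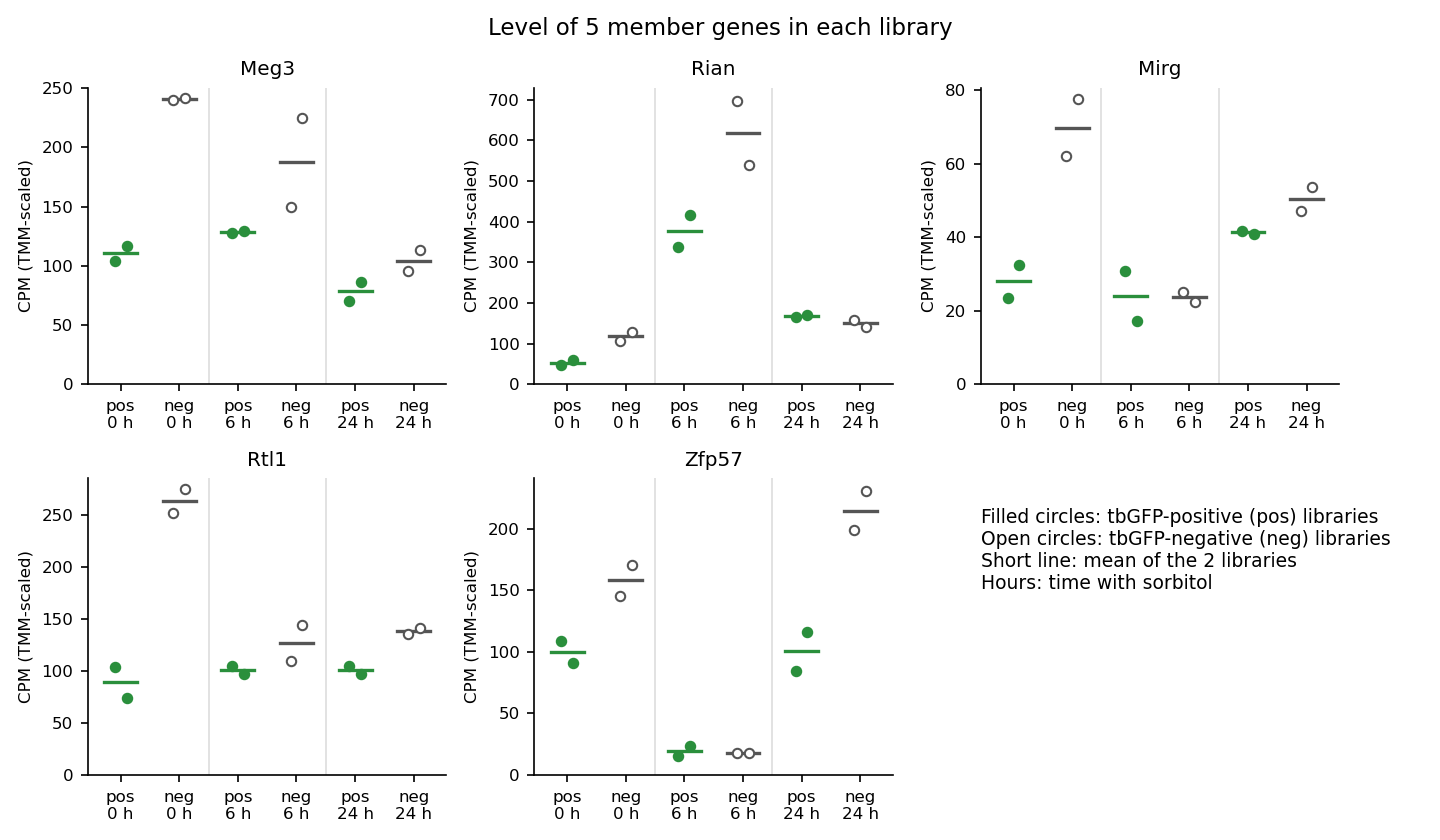
Level of Meg3, Rian, Mirg, Rtl1 and Zfp57 in each library, in CPM scaled with TMM factors, for tbGFP-positive (filled, left of each pair) and tbGFP-negative cells (open) at 0, 6 and 24 h with sorbitol, with the mean of the 2 libraries as a short line. At 0 h all 5 genes are lower in both tbGFP-positive libraries than in both tbGFP-negative libraries, and at 6 h Rian is high and Zfp57 low in both fractions.

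Before sorbitol, 4 RNAs of the cluster were lower in 2-cell-like cells. Meg3, Rian, Mirg and Rtl1, 4 of the 5 tested members, were lower in tbGFP-positive cells than in tbGFP-negative cells at 0 h, by 2.18-fold to 2.96-fold. Zfp57 missed the threshold. Of all 19384 tested genes, 0.449% were lower in this comparison and 6.66% higher, 7.11% in all. Lower genes made up 6.31% of all calls with TMM factors, 36.5% with upper-quartile factors and 43.0% with library totals alone, which placed the median of all genes at -0.35 and -0.41 on the log2 scale, against 0.00. The 4 members were called under each of these scalings.

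Meg3 (ENSMUSG00000021268.17, chr12:109541001-109571726, plus strand) is the long noncoding RNA at the upstream end of the maternal transcripts. Its level at 0 h was 104 and 117 CPM in tbGFP-positive libraries, against 240.5 and 242 CPM in tbGFP-negative libraries. Both tbGFP-positive libraries were below both tbGFP-negative ones, averaging 110.5 ± 9.42 CPM, against 241 ± 1.12 CPM in the tbGFP-negative ones (SD, n = 2 each). The log2 fold change was -1.13 ± 0.21 (SE; edgeR's quasi-likelihood test, p adjusted by Benjamini-Hochberg over all tested genes, adjusted p = 0.00210). At 6 h Meg3 stood at 127 and 129 CPM in tbGFP-positive libraries and at 150.1 and 225 CPM in tbGFP-negative libraries. At 24 h it stood at 70.6 and 86.7 CPM in tbGFP-positive libraries and at 95.5 and 113 CPM in tbGFP-negative libraries. The fractions did not overlap at either time, but the log2 differences of -0.55 ± 0.21 at 6 h (adjusted p = 0.100) and -0.41 ± 0.21 at 24 h (adjusted p = 0.518) missed the threshold. A single transcript held 93.8% of the gene's counts.

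Rian (ENSMUSG00000097451.10, chr12:109603940-109661716, plus strand) is the noncoding host transcript of the cluster's snoRNAs. It had 47.3 and 59.8 CPM in tbGFP-positive libraries at 0 h, against 108 and 129 CPM in tbGFP-negative libraries, a log2 difference of -1.15 ± 0.20 (adjusted p = 0.000961). At 6 h it had 339 and 418 CPM in tbGFP-positive libraries, against 698 and 538 CPM in tbGFP-negative libraries, again without overlap (log2 difference -0.71 ± 0.19, adjusted p = 0.0244). At 24 h the levels were 166 and 171 CPM in tbGFP-positive libraries and 159 and 142 CPM in tbGFP-negative libraries. The tbGFP-positive libraries were then the higher ones, with a log2 difference of 0.17 ± 0.19 (adjusted p = 0.954). The call at 6 h was lost when the fit held only the 4 libraries compared (adjusted p = 0.280) and without tbGFP-negative replicate 1 of 6 h (adjusted p = 0.171).

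Mirg (ENSMUSG00000097391.8, chr12:109729764-109749460, plus strand) is the noncoding host of many of the cluster's microRNAs. At 0 h its level was 23.6 and 32.4 CPM in tbGFP-positive libraries, against 62.0 and 77.7 CPM in tbGFP-negative libraries, and the groups did not overlap (log2 difference -1.33 ± 0.31, adjusted p = 0.0115). At 6 h it was 30.8 and 17.2 CPM in tbGFP-positive libraries and 25.2 and 22.3 CPM in tbGFP-negative libraries, which overlapped, with a log2 difference of -0.01 ± 0.31 (adjusted p = 1). At 24 h it was 41.7 and 40.9 CPM in tbGFP-positive libraries and 47.3 and 53.5 CPM in tbGFP-negative libraries (log2 difference -0.29 ± 0.30, adjusted p = 0.936). The 0 h call was lost without tbGFP-negative replicate 2 of 0 h (adjusted p = 0.176) or tbGFP-positive replicate 1 of 0 h (adjusted p = 0.113).

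Rtl1 (ENSMUSG00000085925.3, chr12:109589193-109600330, minus strand), a retrotransposon-derived protein gene needed in the placenta, showed the widest 0 h gap of the 5 tested members. Its level was 104 and 74.1 CPM in tbGFP-positive libraries at 0 h, against 252 and 275 CPM in tbGFP-negative libraries (log2 difference -1.57 ± 0.21, adjusted p = 6.87e-05). At 6 h it had 104 and 97.6 CPM in tbGFP-positive libraries and 109.7 and 145 CPM in tbGFP-negative libraries, and at 24 h 105 and 97.3 CPM in tbGFP-positive libraries and 136 and 141 CPM in tbGFP-negative libraries. The tbGFP-positive libraries thus spanned 74.1 to 105 CPM over all times, and their levels at 0, 6 and 24 h overlapped. The fractions did not overlap at 6 h or 24 h, with log2 differences of -0.33 ± 0.20 (adjusted p = 0.303) and -0.45 ± 0.20 (adjusted p = 0.373).

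The other 2 paternally expressed genes had few counts. Dlk1 (ENSMUSG00000040856.17, chr12:109452823-109463336, plus strand), a transmembrane ligand related to Notch ligands, had 1 count in tbGFP-positive replicate 1 at 0 h, 2 counts in tbGFP-positive replicate 2 at 24 h and 4 counts in tbGFP-negative replicate 1 at 24 h. It had none in the other 9 libraries, so no difference was detectable with these counts. They rest on 908 bases that no other transcript covers, so they do not show how abundant Dlk1 RNA was. Dio3, the deiodinase at the far end of the cluster, had 110 and 18 counts in tbGFP-positive libraries at 6 h, against 2 and 5 counts in tbGFP-negative libraries, and 0 to 10 counts in libraries of the other times. The log2 difference at 6 h was 4.68 ± 1.26 (adjusted p = 0.0272), and the call was lost under 7 of 19 alternatives. Among these were the fits without tbGFP-positive replicate 1 of 6 h (adjusted p = 0.360), without either tbGFP-negative library of 6 h (0.207 and 0.118), with only the libraries compared (0.265) and with a replicate block (0.0611).

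Zfp57 (ENSMUSG00000036036.15, chr17:37001163-37010635, plus strand) lies outside the cluster. At 0 h its level was 109 and 91.4 CPM in tbGFP-positive libraries, against 146 and 171 CPM in tbGFP-negative libraries. The groups did not overlap, but the log2 difference of -0.66 ± 0.23 missed the threshold (adjusted p = 0.128). It passed with upper-quartile factors (adjusted p = 0.0121), with library totals (0.00646), in a fit of the 4 libraries compared (0.0327) and without the tbGFP-positive libraries of 6 h (0.0161). At 6 h it had 15.4 and 23.8 CPM in tbGFP-positive libraries and 17.8 and 18.1 CPM in tbGFP-negative libraries, which overlapped. At 24 h it had 84.3 and 116 CPM in tbGFP-positive libraries, against 199 and 230.4 CPM in tbGFP-negative libraries, a log2 difference of -1.10 ± 0.23 (adjusted p = 0.00709). This 24 h call was lost without tbGFP-negative replicate 2 (adjusted p = 0.117) or tbGFP-positive replicate 1 of 24 h (0.162), and with only the transcript that has the most counts per gene (0.371).

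Across times the gap between fractions was therefore called for 4 of the 5 tested members at 0 h, for Rian alone at 6 h and for Zfp57 alone at 24 h. At 6 h 12.1% of all tested genes differed between fractions, 6.92% higher and 5.22% lower in tbGFP-positive cells, and at 24 h 5.46% differed, 5.35% higher and 0.113% lower. With upper-quartile factors lower genes made up 67.5% of the calls at 6 h, against 43.0% with TMM factors, and with library totals 32.4% at 24 h, against 2.08%. With upper-quartile factors at 6 h and library totals at 24 h, Meg3 (adjusted p = 0.0101) and Rtl1 (0.0329) were also lower at 6 h, and Meg3 (0.0374) and Rtl1 (0.0141) at 24 h. Meg3 was also lower at 6 h without tbGFP-negative replicate 1 (0.0347). Averaged over the 3 times, all 5 tested members were lower in tbGFP-positive cells. The log2 differences ran between -0.53 ± 0.14 for Zfp57 (adjusted p = 0.0145) and -0.78 ± 0.12 for Rtl1 (adjusted p = 0.000155), and Mirg, at -0.54 ± 0.18, was near the threshold (adjusted p = 0.0490) and lost its call under 12 alternatives (adjusted p up to 0.159). The Zfp57 call was lost under 4 (adjusted p up to 0.174). In that comparison 15.9% of all tested genes differed, 10.8% higher and 5.13% lower, and lower genes were 32.2% of the calls with TMM factors, 65.3% with upper-quartile factors and 65.2% with library totals.

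**Figure D2:**
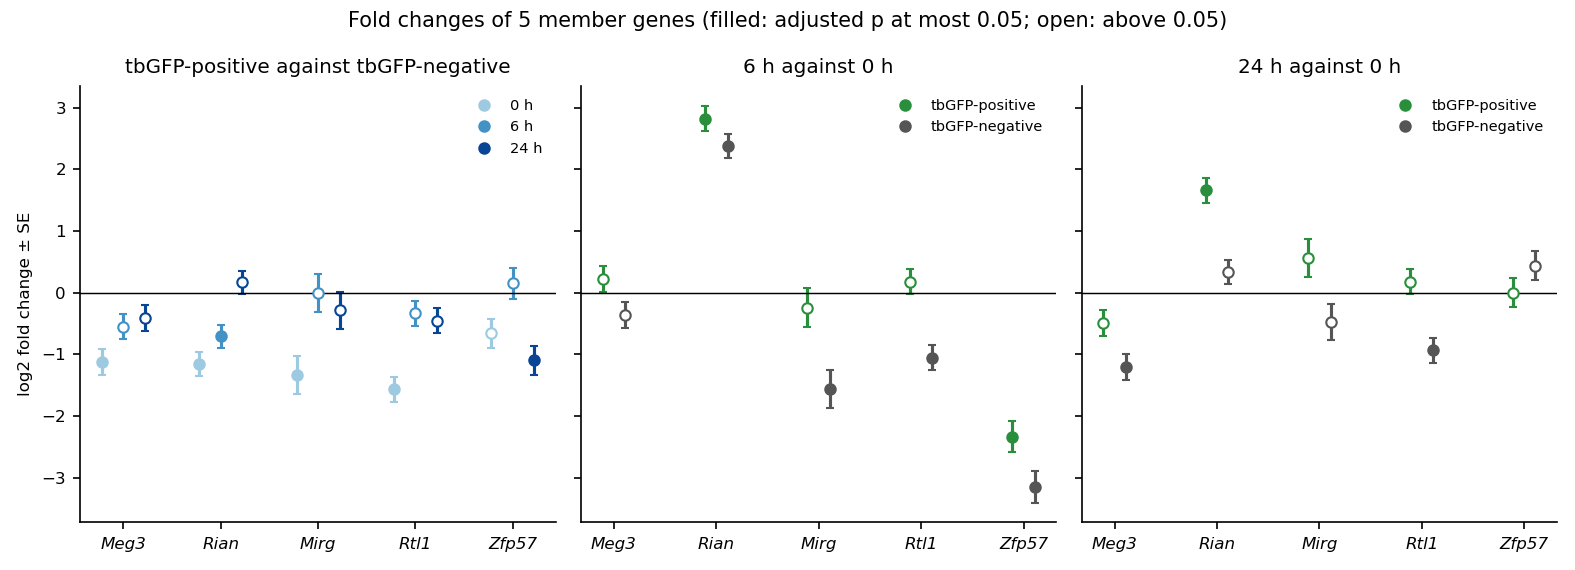
Log2 fold change ± SE of 5 members between the fractions, tbGFP-positive over tbGFP-negative, at each time (left), 6 h against 0 h (middle) and 24 h against 0 h (right), with filled points at an adjusted p of at most 0.05. At 6 h Rian changed by 2.82 and Zfp57 by -2.33 in tbGFP-positive cells, and by 2.38 and -3.14 in tbGFP-negative cells, while Mirg and Rtl1 fell in tbGFP-negative cells.

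After 6 h with sorbitol the members moved in opposite directions. Rian rose and Zfp57 fell in both fractions, Mirg and Rtl1 fell in tbGFP-negative cells, and Meg3 was not called in either. In tbGFP-positive cells 2 of the 5 tested members were called, 1 higher and 1 lower, against 5.9% of all tested genes, 2.14% higher and 3.76% lower. In tbGFP-negative cells 4 of 5 were called, 1 higher and 3 lower, against 4.44% of all tested genes, 3.22% higher and 1.21% lower. Rian rose 7.07-fold in tbGFP-positive cells, with a log2 change of 2.82 ± 0.21 (adjusted p = 5.50e-06), and 5.20-fold in tbGFP-negative cells, with a log2 change of 2.38 ± 0.20 (adjusted p = 8.85e-06). Its lowest library at 6 h, 339 CPM, stood above its highest at 0 h, 129 CPM. Both calls held under every alternative tried, with adjusted p-values up to 0.00115 and 0.00161.

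Zfp57 fell to 19.6 ± 5.97 CPM in tbGFP-positive cells at 6 h, against 100.3 ± 12.5 CPM at 0 h (SD, n = 2 each). In tbGFP-negative cells it fell to 17.9 ± 0.220 CPM at 6 h, against 158 ± 17.7 CPM at 0 h. The log2 changes were -2.33 ± 0.25 (adjusted p = 0.000239) and -3.14 ± 0.26 (adjusted p = 6.87e-06), and both held under every alternative tried, with adjusted p-values up to 0.0358 and 0.0105. The main transcript of Zfp57 held 71.8% of the counts and the next 25.9%. Tested on its own, the minor one fell by 3.10 ± 0.42 in tbGFP-positive cells (adjusted p = 0.000551) and by 3.15 ± 0.41 in tbGFP-negative cells (adjusted p = 0.000194) on the log2 scale. The main one had 4 counts in tbGFP-positive replicate 1 and 136 in replicate 2 at 6 h, so its level there came almost wholly from 1 library. Tested on its own, it changed by -2.62 ± 0.68 in tbGFP-positive cells (adjusted p = 0.0504) and by -3.42 ± 0.69 in tbGFP-negative cells (adjusted p = 0.0273).

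In tbGFP-negative cells Mirg fell to 23.7 ± 2.06 CPM at 6 h, against 69.8 ± 11.1 CPM at 0 h, and Rtl1 to 127 ± 24.8 CPM, against 264 ± 16.3 CPM. The log2 changes were -1.56 ± 0.31 for Mirg (adjusted p = 0.00870) and -1.05 ± 0.20 for Rtl1 (adjusted p = 0.00759). Each was lost when single libraries were left out: Mirg without tbGFP-negative replicate 2 of 0 h (adjusted p = 0.140), replicate 1 of 6 h (0.0750) or replicate 2 of 6 h (0.0964), and Rtl1 without replicate 1 of 0 h (0.0591), replicate 2 of 0 h (0.111) or replicate 1 of 6 h (0.105). In tbGFP-positive cells the log2 changes were -0.24 ± 0.31 for Mirg (adjusted p = 0.681), 0.18 ± 0.20 for Rtl1 (0.633) and 0.22 ± 0.21 for Meg3 (0.562), and Meg3 in tbGFP-negative cells changed by -0.36 ± 0.21 (0.408). Lower genes were 27.3% of the calls in tbGFP-negative cells with TMM factors, 62.7% with library totals and 42.4% with DESeq2.

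By 24 h Zfp57 was no longer low, Rian had come down, and Meg3 and Rtl1 were low in tbGFP-negative cells. Against 0 h, 1 of the 5 tested members was called in tbGFP-positive cells, as higher, against 0.552% of all tested genes, 0.304% higher and 0.248% lower. In tbGFP-negative cells 2 of 5 were called, both lower, against 3.99% of all tested genes, 2.7% higher and 1.29% lower. In tbGFP-positive cells Rian stayed 3.16-fold above 0 h, at 169 ± 3.72 CPM against 53.5 ± 8.84 CPM (log2 change 1.66 ± 0.20, adjusted p = 0.00118). In tbGFP-negative cells it stood at 150.2 ± 11.98 CPM at 24 h, against 118 ± 15.4 CPM at 0 h (log2 change 0.34 ± 0.19, adjusted p = 0.502). Lower genes were 44.9% of the calls in tbGFP-positive cells with TMM factors, 29.2% with library totals and 55.2% with DESeq2, and 32.3% in tbGFP-negative cells with TMM factors against 49.8% with upper-quartile factors.

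Meg3 fell to 104 ± 12.6 CPM in tbGFP-negative cells at 24 h, against 241 ± 1.12 CPM at 0 h (log2 change -1.21 ± 0.21, adjusted p = 0.00288), and Rtl1 to 139 ± 3.77 CPM, against 264 ± 16.3 CPM (-0.93 ± 0.20, adjusted p = 0.0143). In the same cells the 2-cell-like markers summed to 863 to 917 CPM at 24 h, against 17.2 to 39.6 CPM at 0 h, and their part in these changes was not tested. The Meg3 call was lost without tbGFP-negative replicate 1 of 24 h (adjusted p = 0.0774), and the Rtl1 call without any 1 of the 4 libraries compared (adjusted p = 0.0833 to 0.181). Zfp57 had 215 ± 21.99 CPM in tbGFP-negative cells at 24 h, against 158 ± 17.7 CPM at 0 h (log2 change 0.44 ± 0.23, adjusted p = 0.452), and its log2 change in tbGFP-positive cells was 0.00 ± 0.23 (adjusted p = 1). A p above the threshold does not show that levels were equal.

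At 24 h against 6 h, 2 of the 5 tested members changed in tbGFP-positive cells, against 8.82% of all tested genes, 5.91% higher and 2.9% lower. In tbGFP-negative cells 4 of 5 changed, 2 higher and 2 lower, against 7.91% of all tested genes, 3.62% higher and 4.3% lower. Zfp57 rose in both, by 2.33 ± 0.25 in tbGFP-positive cells (adjusted p = 0.000552) and by 3.58 ± 0.26 in tbGFP-negative cells (adjusted p = 9.89e-07) on the log2 scale. Rian fell in both, by 1.16 ± 0.19 (adjusted p = 0.00310) in tbGFP-positive cells and by 2.04 ± 0.20 (adjusted p = 1.61e-05) in tbGFP-negative cells. A fit of only the 4 tbGFP-positive libraries ended the calls of Zfp57 (adjusted p = 0.156) and Rian (0.220) there, and 0 of all genes were called in that fit; Rian was also lost without tbGFP-positive replicate 1 of 24 h (0.0509). In tbGFP-negative cells Meg3 also fell (log2 change -0.85 ± 0.21, adjusted p = 0.0207) and Mirg rose (1.09 ± 0.30, adjusted p = 0.0397), but both calls were lost under several alternatives, with adjusted p-values up to 0.258 for Meg3 and 0.287 for Mirg. Lower genes were 54.3% of the calls in tbGFP-negative cells with TMM factors, 65.1% with upper-quartile factors and 18.1% with library totals.

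The order of the 6 groups differed by member. Rtl1 was highest in tbGFP-negative cells at 0 h and its other groups overlapped in part, with tbGFP-negative cells at 24 h and 6 h overlapping each other and the 3 tbGFP-positive groups overlapping one another. Meg3 ran downward through tbGFP-negative cells at 0 h and 6 h, then tbGFP-positive cells at 6 h and 0 h, then tbGFP-negative and tbGFP-positive cells at 24 h, and among neighbours in that order only 1 pair overlapped, tbGFP-positive cells at 0 h and tbGFP-negative cells at 24 h. Rian was highest in tbGFP-negative and then tbGFP-positive cells at 6 h, followed by both fractions at 24 h and both at 0 h, and no neighbours in that order overlapped. Mirg was highest in tbGFP-negative cells at 0 h and 24 h, and its 3 lowest groups overlapped. Zfp57 was highest in tbGFP-negative cells at 24 h, and both 6 h groups, which overlapped, were lowest.

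Whether the change with sorbitol differed between fractions was tested as an interaction. For 6 h against 0 h none of the 5 tested members was called by edgeR, 3 had an unadjusted p under 0.05 and DESeq2 called 1, Rtl1. The lowest p was that of Rtl1, whose log2 change was higher by 1.23 ± 0.29 in tbGFP-positive than in tbGFP-negative cells (adjusted p = 0.102), and 0.17% of all tested genes were called. All 33 of those genes were lower with TMM factors, against 75% with library totals and 80.6% with DESeq2. For 24 h against 0 h only Rian was called, with a log2 change higher by 1.32 ± 0.27 in tbGFP-positive cells (adjusted p = 0.0270), against 0.97% of all tested genes, 0.0206% higher and 0.949% lower. That call was lost when any 1 of 7 of the 8 libraries compared was left out, with an adjusted p of 0.0571 to 0.315.

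**Figure D3:**
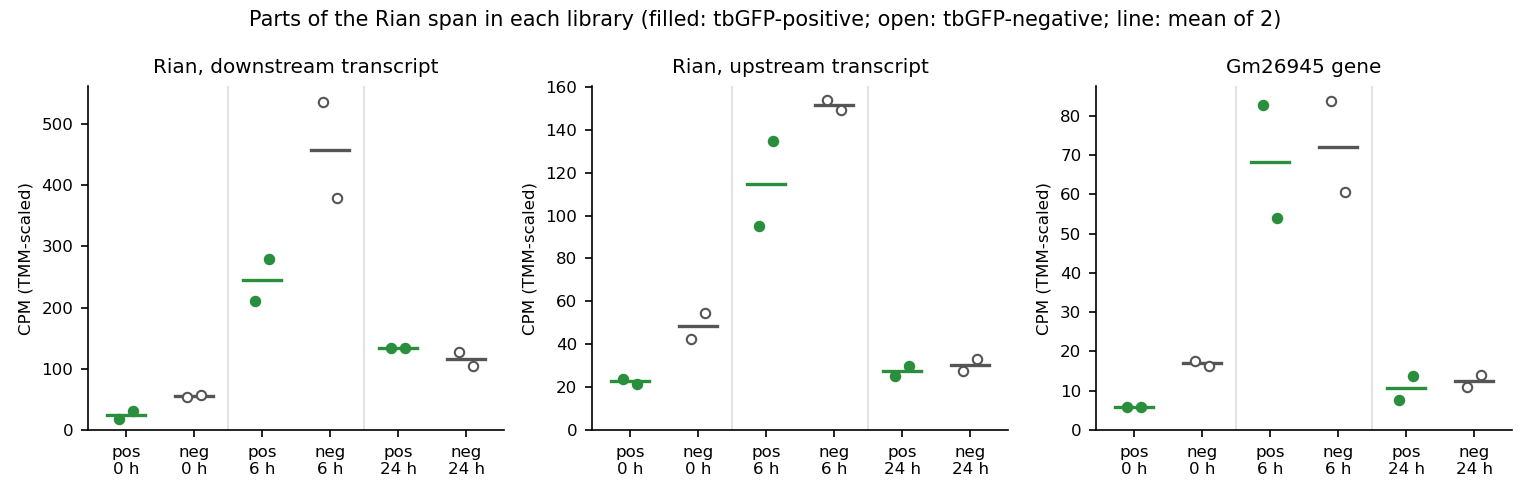
Level of the downstream and the upstream main transcript of Rian and of the gene Gm26945, which lies between them, in each library in CPM scaled with TMM factors (filled, tbGFP-positive; open, tbGFP-negative; line, mean of 2). Each part is highest at 6 h in both fractions, and at 24 h the downstream transcript is above its 0 h level in every library, by 2.52 and 1.06 on the log2 scale in tbGFP-positive and tbGFP-negative cells, while the 24 h change of the upstream one was 0.31 and -0.69.

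The balance between the main Rian transcripts differed by time. The downstream transcript (chr12:109646162-109655009) held 70.3% of the gene's counts, and an upstream transcript (chr12:109632798-109636273) held 26.2%. The choice to test single transcripts, among 27096 with enough counts, was made after the counts per transcript had been seen. At 6 h against 0 h the downstream transcript rose by 3.27 ± 0.26 in tbGFP-positive cells (adjusted p = 3.69e-06) and by 2.91 ± 0.25 in tbGFP-negative cells (adjusted p = 2.68e-06) on the log2 scale. The upstream transcript rose by 2.26 ± 0.27 (adjusted p = 0.000188) in tbGFP-positive cells and by 1.495 ± 0.26 (adjusted p = 0.00317) in tbGFP-negative cells.

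At 24 h the downstream transcript was still above its starting level and the upstream one was not called. The downstream one was higher than at 0 h by 2.52 ± 0.26 in tbGFP-positive cells (adjusted p = 7.95e-05) and by 1.06 ± 0.24 in tbGFP-negative cells (adjusted p = 0.0183), while the upstream one changed by 0.31 ± 0.27 in tbGFP-positive cells (adjusted p = 0.879) and by -0.69 ± 0.26 in tbGFP-negative cells (adjusted p = 0.263). The number of downstream counts for each upstream count was 0.744 and 1.44 in tbGFP-positive and 1.25 and 1.05 in tbGFP-negative libraries at 0 h. It was 2.21 and 2.08 in tbGFP-positive and 3.49 and 2.54 in tbGFP-negative libraries at 6 h, and 5.36 and 4.505 in tbGFP-positive and 4.66 and 3.15 in tbGFP-negative libraries at 24 h. The ratios at 0 h thus did not overlap with those at 6 h or 24 h in any library. A pair of further Rian transcripts with no base of their own in this annotation held 1.99% and 1.30% of the counts.

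Gm26945 (chr12:109640341-109642351, plus strand) is annotated as a separate long noncoding RNA inside the span of Rian, between the same 2 transcripts. Its level at 0 h was 5.94 and 5.93 CPM in tbGFP-positive libraries, against 17.5 and 16.4 CPM in tbGFP-negative libraries (log2 difference -1.51 ± 0.38, adjusted p = 0.0221), a call that leaving out any 1 of the 4 libraries ended (adjusted p = 0.110 to 0.121). At 6 h it had 82.7 and 53.9 CPM in tbGFP-positive libraries and 83.7 and 60.5 CPM in tbGFP-negative libraries, and at 24 h 7.63 and 13.8 CPM in tbGFP-positive libraries and 11.1 and 14.1 CPM in tbGFP-negative libraries. Every 6 h library stood above every 0 h and 24 h library. The log2 changes at 6 h against 0 h were 3.52 ± 0.39 in tbGFP-positive cells (adjusted p = 0.000279) and 2.09 ± 0.35 in tbGFP-negative cells (adjusted p = 0.00330). The tbGFP-negative call was lost without tbGFP-negative replicate 1 (adjusted p = 0.0540) or replicate 2 of 0 h (0.0854) or replicate 1 of 6 h (0.0836).

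**Figure D4:**
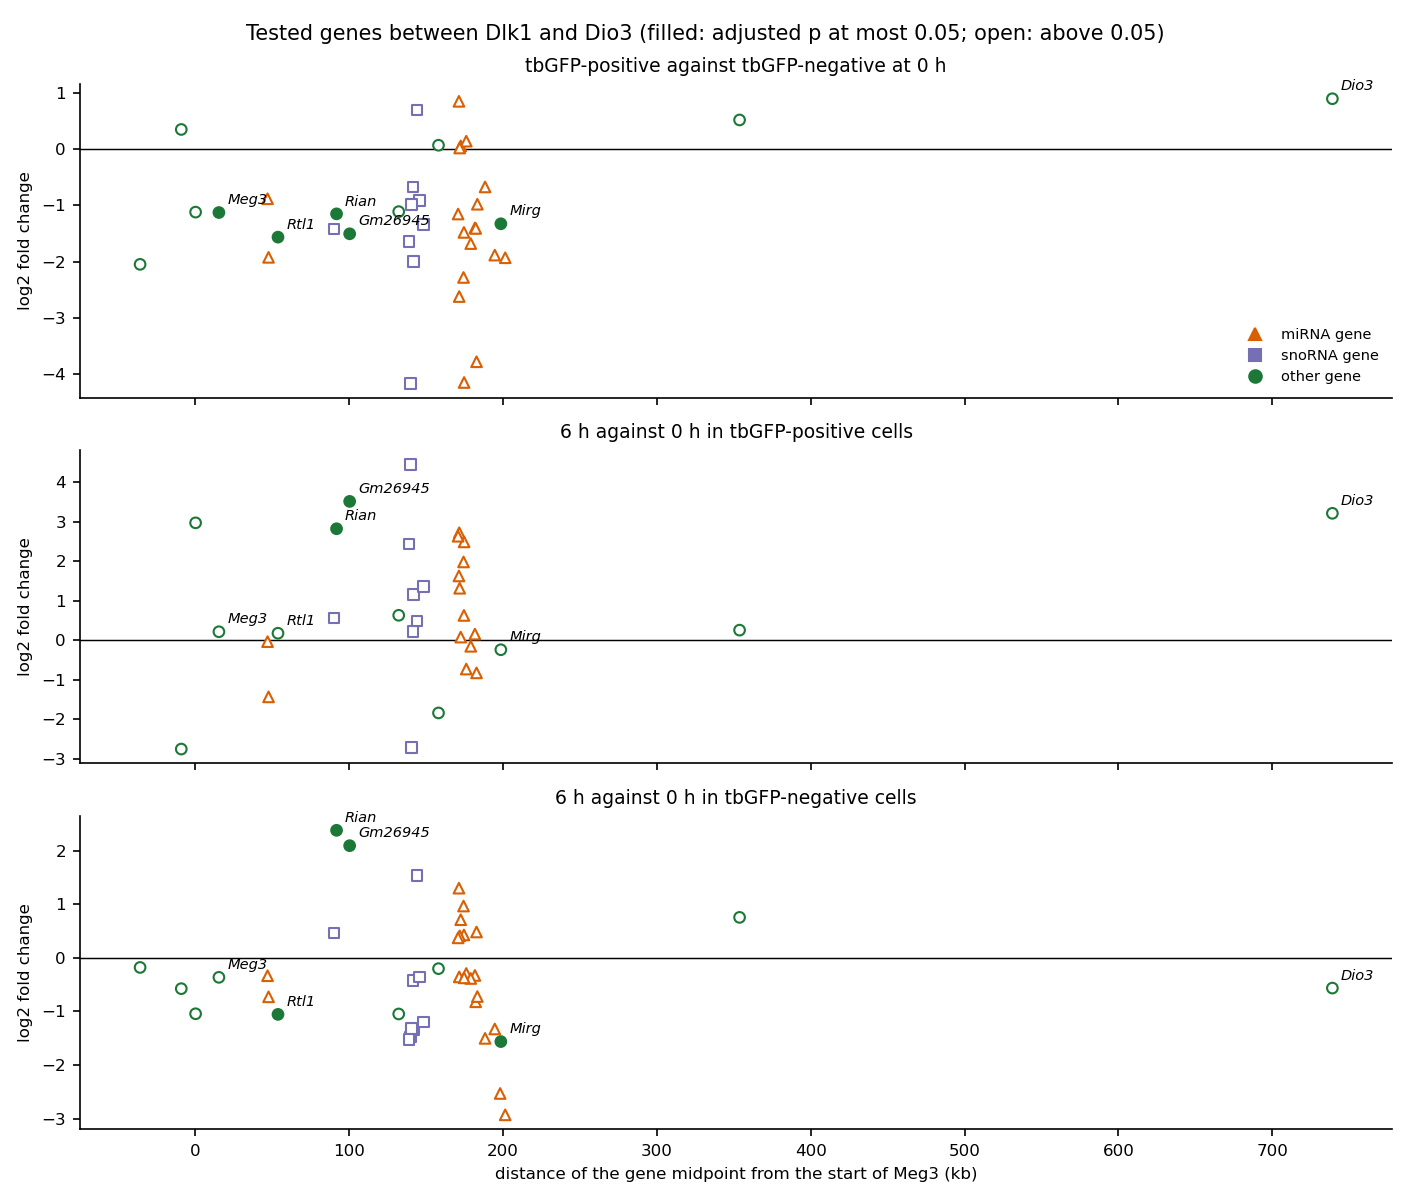
Log2 fold change of tested genes between Dlk1 and Dio3 against the distance of the gene midpoint from the start of Meg3 in kb, for the fractions at 0 h, tbGFP-positive over tbGFP-negative (40 genes), and for 6 h against 0 h in tbGFP-positive (33 genes) and tbGFP-negative cells (41 genes), with filled points at an adjusted p of at most 0.05. Genes with no counts in a group compared are not drawn; the median at 0 h is -1.33, and Rian and Gm26945 are the called genes that rose at 6 h in both fractions.

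The wider cluster, chr12:109452823-110281097, holds 117 annotated genes, of which 69 had counts and 41 could be tested. At 0 h the median log2 difference of these 41 genes, tbGFP-positive against tbGFP-negative, was -1.33, against 0.00 over all tested genes. Of the 41, 5 were lower and none was higher, against 0.449% lower and 6.66% higher over all tested genes. The 37 that are not members had a median of -1.34 and included 1 of the calls, Gm26945. The 20 microRNA genes had a median of -1.45 and the 9 snoRNA genes of -1.34, and edgeR called none of either, with 4 and 1 at an unadjusted p under 0.05 and 0 and 1 called by DESeq2. At 24 h the median over the 41 genes was -0.23, against -0.05 over all tested genes. There neither edgeR nor DESeq2 called any of the 41, and 3 had an unadjusted p under 0.05. Genes of the cluster share transcripts and are not independent of the members. A gene could also pass the count filter through 1 fraction alone. Mir541, Mir496a, Mir544, Mir667 and Gm34081 reached 10 counts only in tbGFP-negative libraries, and Dio3 only in tbGFP-positive ones. The medians therefore depend in part on the filter, and how much was not tested.

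Reads on the cluster's 67 microRNA genes summed to 29.1 and 31.9 CPM in tbGFP-positive libraries at 0 h, against 82.1 and 82.0 CPM in tbGFP-negative libraries. At 6 h they summed to 38.6 and 25.7 CPM in tbGFP-positive libraries and to 56.0 and 57.6 CPM in tbGFP-negative libraries, and at 24 h to 41.9 and 38.0 CPM in tbGFP-positive libraries and 45.8 and 44.4 CPM in tbGFP-negative libraries. The tbGFP-positive sums were below the tbGFP-negative sums at each time, by least at 24 h. Reads on the 23 snoRNA genes summed to 13.2 and 17.0 CPM in tbGFP-positive libraries at 0 h, against 40.7 and 28.3 CPM in tbGFP-negative libraries, and they overlapped between fractions at 6 h and 24 h. At 6 h their sums were 39.2 and 26.1 CPM in tbGFP-positive libraries and 26.2 and 24.3 CPM in tbGFP-negative libraries. These sums were not tested. At 6 h against 0 h, the 9 tested snoRNA genes had median log2 changes of 0.56 in tbGFP-positive cells and -1.19 in tbGFP-negative cells. Over all tested genes the medians were -0.05 and 0.05, and Rian rose in both fractions. Of the 9, edgeR called none in either fraction and DESeq2 called 1, in tbGFP-positive cells.

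At 6 h 5.22% of all tested genes were lower and 6.92% higher in tbGFP-positive cells. Of the 41 genes of the cluster 5 were lower, namely Rian and 4 others, and 1, Dio3, was higher. Of the 4, the microRNA gene Gm25252, which has no RefSeq microRNA entry here, had a log2 difference of -5.09 ± 1.49 (adjusted p = 0.0381), a call lost under 11 of 19 alternatives (adjusted p up to 0.329). The microRNA genes Mir654 and Mir453 and the long noncoding RNA Gm34081, which lies on the minus strand upstream of Meg3, had 0 counts in both libraries of tbGFP-positive cells at 6 h. In tbGFP-negative libraries Mir654 had 13 and 19 counts, Mir453 had 10 and 14, and Gm34081 had 26 and 25. With 3 counts put in place of 0 for the group, Mir654 came out 10.3-fold lower in tbGFP-positive cells (adjusted p = 0.00813). Mir453 came out 7.70-fold lower (adjusted p = 0.0199) and Gm34081 16.4-fold lower (adjusted p = 0.00613). Such folds cover counting error in the tbGFP-positive group only and take the tbGFP-negative counts as exact. Zeros were common in the tbGFP-positive libraries of 6 h. There 8 and 11 of the 67 microRNA genes had counts, against 34 and 30 in the tbGFP-negative libraries of 6 h. All 3 calls were lost in a fit of the 4 libraries compared (adjusted p = 0.319, 0.319 and 0.252), and that of Mir453 also without tbGFP-negative replicate 2 of 6 h (0.0814). Mir3070b, the source of miR-3070-2-3p, was lower in tbGFP-positive cells on average over the 3 times (log2 difference -1.67 ± 0.51, adjusted p = 0.0371), a call lost under 10 of its alternatives (adjusted p up to 0.111).

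**Figure D5:**
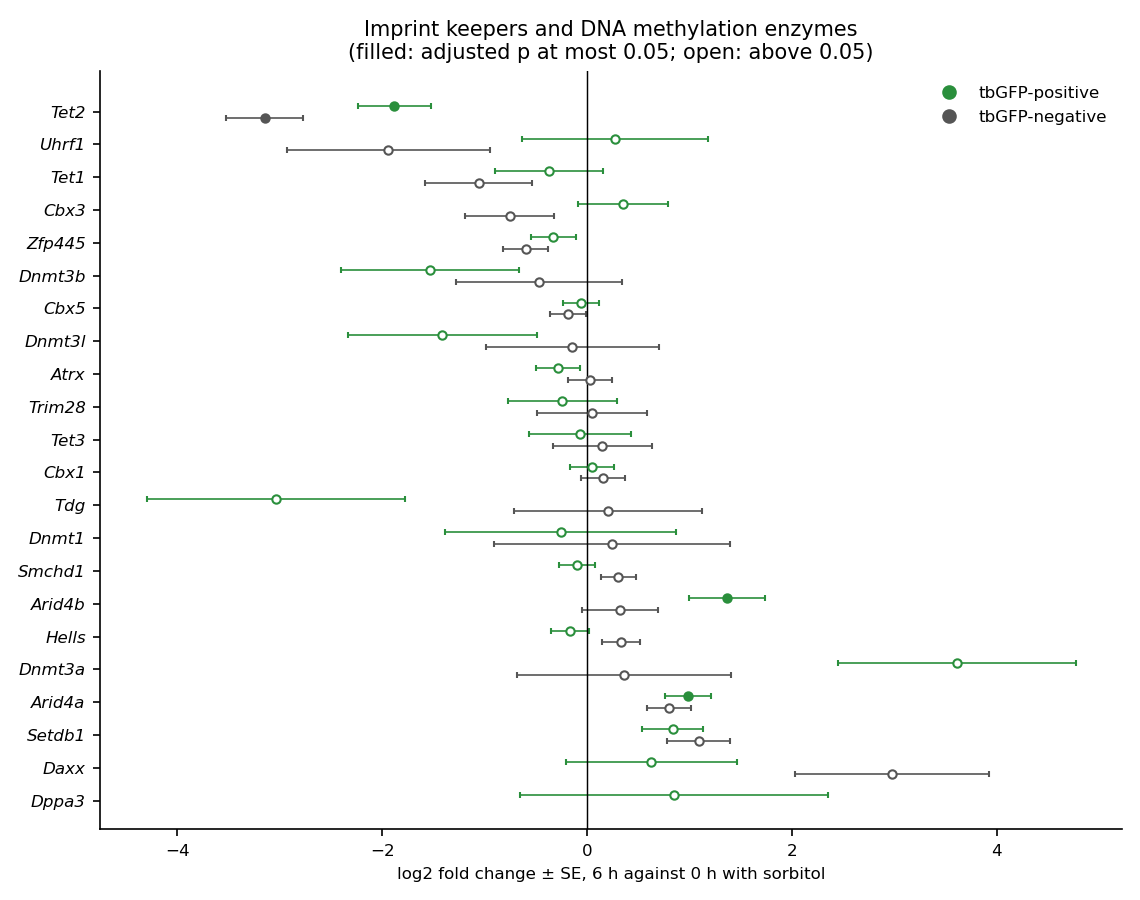
Log2 fold change ± SE at 6 h against 0 h of 22 imprint keepers and DNA methylation enzymes in tbGFP-positive and tbGFP-negative cells, with filled points at an adjusted p of at most 0.05; Dppa3 in tbGFP-negative cells, with no counts at 0 h, is not drawn. Tet2 is the one gene of the list that edgeR called as lower in both fractions, and Arid4a and Arid4b are called as higher in tbGFP-positive cells.

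Zfp57 acts with other proteins that keep or erase methylation, and a list of 22 such genes was examined, all of which could be tested. Between fractions none was called at 0 h or 24 h by edgeR or DESeq2, with 3 and 2 at an unadjusted p under 0.05, and 1, the thymine DNA glycosylase Tdg, was lower in tbGFP-positive cells at 6 h (adjusted p = 0.0237). Tdg had 0 and 2 counts in tbGFP-positive libraries of 6 h, against 26 and 26 in tbGFP-negative libraries (log2 difference -4.61 ± 1.22). The Tdg call was lost without either tbGFP-negative library of 6 h. For the mean over times edgeR called Cbx5 (-0.39 ± 0.10, adjusted p = 0.0169) and Tdg (-2.13 ± 0.61, adjusted p = 0.0250) as lower. None of the list was higher there, where 10.8% of all tested genes were higher and 5.13% lower. The list's median log2 difference was -0.14 at 0 h, 0.05 at 6 h and -0.23 at 24 h, against 0.00, -0.07 and -0.05 over all tested genes. At 6 h against 0 h, edgeR called 2 as higher and 1 as lower in tbGFP-positive cells and 1 as lower in tbGFP-negative cells, where 5.9% and 4.44% of all tested genes were called. DESeq2 called 4 in each fraction, and 6 in each had an unadjusted p under 0.05. The gene that edgeR called in both was Tet2, a methylcytosine dioxygenase. Those that rose were Arid4a (log2 change 0.98 ± 0.22, adjusted p = 0.0207) and Arid4b (1.36 ± 0.37, adjusted p = 0.0446), chromatin proteins linked to imprint control, and their calls were lost under 5 and 15 of 20 alternatives (adjusted p up to 0.334 and 0.769).

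Tet2 had 7.85 and 10.6 CPM in tbGFP-positive libraries at 6 h, against 35.0 and 34.1 CPM at 0 h, and 5.54 and 4.37 CPM in tbGFP-negative libraries at 6 h, against 41.8 and 46.3 CPM at 0 h. The log2 changes were -1.88 ± 0.36 in tbGFP-positive cells (adjusted p = 0.00911) and -3.15 ± 0.38 in tbGFP-negative cells (adjusted p = 0.000231), and every 6 h library was below every 0 h library. The tbGFP-positive call was lost in a fit of the 4 libraries compared (adjusted p = 0.206) and with only the transcript that has the most counts per gene (0.0597). At 24 h Tet2 stood at 38.3 ± 2.54 CPM in tbGFP-negative cells and, with 14.7 and 26.1 CPM, below 0 h in both tbGFP-positive libraries. Trim28, the corepressor that ZFP57 recruits, had 12.6 to 39.6 CPM over the 12 libraries and was called in no comparison. Its replicates lay far apart, with 37.3 and 12.6 CPM in tbGFP-positive libraries at 0 h. At 6 h its log2 change was -0.24 ± 0.53 in tbGFP-positive cells and 0.05 ± 0.54 in tbGFP-negative cells. The missing calls therefore do not show that Trim28 was unchanged. Zfp445, another zinc finger imprint keeper, had 135 to 271 CPM and was called in none, with a log2 change at 6 h of -0.33 ± 0.22 in tbGFP-positive cells (adjusted p = 0.371) and -0.60 ± 0.22 in tbGFP-negative cells (adjusted p = 0.153).

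Of 9 genes that flank the cluster, none was called between fractions at 0 h by edgeR or DESeq2 and 1 had an unadjusted p under 0.05, with a median log2 difference of -0.06, against 0.00 over all tested genes. At 6 h 1 was called, Ppp2r5c, a regulatory subunit of protein phosphatase 2A, which was lower in tbGFP-positive cells (log2 difference -0.90 ± 0.20, adjusted p = 0.00709). That call was lost in a fit of the libraries compared (0.149) and without tbGFP-negative replicate 1 of 6 h (0.0513). Ppp2r5c was also called for the mean over times (-0.35 ± 0.11, adjusted p = 0.0445), a call lost under 12 of 19 alternatives, and at 24 h neither tool called any of the 9. At 6 h against 0 h, 2 rose in tbGFP-positive cells, Yy1 and Wars, a tRNA synthetase, and Yy1 alone in tbGFP-negative cells. Wars had 10 and 26 counts in the 2 tbGFP-positive libraries of 6 h, against 0 counts in both of 0 h. The Wars call (adjusted p = 0.0366) was lost under 13 of 18 alternatives (adjusted p up to 0.564). The one called in both was Yy1, a zinc finger transcription factor upstream of Dlk1 on the same chromosome, which rose at 6 h to 620 ± 166 CPM in tbGFP-positive cells, against 256 ± 17.5 CPM at 0 h, and to 871 ± 27.0 CPM in tbGFP-negative cells, against 200.3 ± 0.744 CPM at 0 h. The log2 changes were 1.28 ± 0.18 (adjusted p = 0.00151) and 2.12 ± 0.18 (adjusted p = 9.97e-06), and both held under every alternative tried. Of 8 reported regulators of the cluster, 7 could be tested, and edgeR called none between fractions at any single time or at 6 h or 24 h against 0 h. Eed, a subunit of Polycomb repressive complex 2, was lower in tbGFP-positive cells for the mean over times (log2 difference -0.78 ± 0.22, adjusted p = 0.0240, lost under 7 of 19 alternatives). Jarid2, which recruits that complex, was higher at 24 h than at 6 h in tbGFP-negative cells (1.38 ± 0.33, adjusted p = 0.0163), and the call was lost without any 1 of the 4 libraries compared (0.0720 to 0.186). DESeq2 called 1 at 6 h against 0 h in tbGFP-positive cells and 2 in tbGFP-negative cells, where 2 in each had an unadjusted p under 0.05.

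Over the 12 libraries the members did not share 1 pattern. The highest Pearson correlation of log2(CPM + 1) between any 2 of the 5 tested members was 0.76, for Mirg and Zfp57, followed by 0.72 for Meg3 and Rtl1, and the lowest was -0.77, for Rian and Zfp57. Among 9287 genes with a mean of at least 5 CPM, the gene most like Rian was Slc38a2, an amino acid transporter, at 0.981, and the gene most like Zfp57 was Zfp866, at 0.987. The gene most like Meg3 was Gys1, the muscle glycogen synthase, at 0.946. Zbtb38, which binds methylated DNA, was most like Mirg at 0.970, and Gm43041 was most like Rtl1 at 0.925. These are descriptions over 12 libraries of 6 groups, which share sorting, time and depth, and carry no test.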

How the data were processed

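Total RNA of 12 sorted libraries was sequenced after a TruSeq Stranded total RNA protocol, per the labels' protocols. The authors deposited whole-number read counts per transcript, and the submitters' processing notes name FastQC, HISAT2, featureCounts, DESeq2 and the build mm10, with no versions and no strand setting. Here the counts of 141536 of 142446 transcripts, those matched to the GENCODE annotation of GRCm38, were summed to 55266 genes, and the 910 unmatched transcripts held 0.0606% to 0.0903% of each library's counts. Genes that reached 10 counts in 2 or more libraries were tested with edgeR 4.0.16 in R 4.3.3 (TMM factors, robust quasi-likelihood test, 1 mean per group, all 12 libraries), with Benjamini-Hochberg adjustment over 19384 genes and a threshold of 0.05. The standard error is the log2 fold change divided by the root of its F value. The biological coefficient of variation was 45.6%.

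The design had assumed counts per gene, and summing transcripts met it. The fit was tested on simulated data with known changes. Alternatives were DESeq2 1.42.0 with its own factors, upper-quartile factors, library totals, other count filters, a replicate block, only the libraries compared, each library left out, the tbGFP-positive libraries of 6 h left out, and only the transcript with the most counts per gene. Fits of single transcripts and the alternatives for genes that are no member were chosen after seeing the data. The members and gene lists were chosen with earlier results of these data known. Named were all members, up to 4 called genes per list and direction with the lowest adjusted p, genes of the region with enough counts, and the genes most correlated with each member. Levels at 0 counts are bounded with 3 counts over the group. Replicates of a group differed by more than sampling noise (chi-square per degree of freedom 5.4 to 43.9), so none was merged.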

Additional observations from a re-analysis of the deposited data

Results flagged for a closer look

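The change of Rian at 24 h against 0 h differed between the fractions by a test of the difference itself. It was higher by 1.32 ± 0.27 on the log2 scale in tbGFP-positive cells than in tbGFP-negative cells (edgeR's quasi-likelihood test, interaction term, adjusted p = 0.0270). Rian stood at 166 and 171 CPM in tbGFP-positive libraries at 24 h, against 47.3 and 59.8 CPM at 0 h, and at 159 and 142 CPM in tbGFP-negative libraries at 24 h, against 108 and 129 CPM at 0 h. With only the transcript that has the most counts, the adjusted p was 0.0937. The call was lost under 8 of 21 alternatives, most of them fits with 1 library left out.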

How the results depend on the processing

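Calls of members held in 492 cases over the alternatives and were lost in 60, and none changed direction. The number of members called between fractions at 6 h was 1, and it was 3 with upper-quartile factors and 0 in a fit of the libraries compared. Of all genes, upper-quartile factors called 2454 as lower there, against 1012 with TMM factors. The fit of the libraries compared called 604 genes there, against 2354. At 24 h the number of members was 1, and it was 3 with library totals and 0 with the transcript with the most counts per gene. Library totals called 424 of all genes as lower there, against 22 with TMM factors. For the mean over times the number of members was 5, and 3 with that transcript. At 24 h against 0 h in tbGFP-negative cells it was 2, and 4 in a fit of the libraries compared, which called 3600 of all genes against 773. At 24 h against 6 h in tbGFP-positive cells it was 2, and 0 in that fit, which called 0 of all genes against 1709. The 6 h interaction had 0, and 1 with library totals, no filter or DESeq2. The 24 h interaction had 1, and 0 with the transcript with the most counts, and 2 with upper-quartile factors, no filter, the libraries compared, DESeq2 or without the tbGFP-positive libraries of 6 h.

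Leaving out 1 library gave 3 to 5 members called between fractions at 0 h, 1 at 6 h, 0 to 1 at 24 h and 3 to 5 for the mean. Against 0 h it gave 2 at 6 h and 1 at 24 h in tbGFP-positive cells, and 2 to 4 at 6 h and 0 to 2 at 24 h in tbGFP-negative cells. Between 6 h and 24 h it gave 1 to 4 in tbGFP-positive and 2 to 4 in tbGFP-negative cells, and for both interactions 0 to 2. Where an arm had 1 library left, it was assumed to vary like the others. Counts of all genes called moved further, such as 33 for the 6 h interaction against 2070 without tbGFP-positive replicate 2 of 6 h, and 107 at 24 h against 0 h in tbGFP-positive cells against 9 without replicate 1 of 24 h. The cause was not tested.

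No pairing by replicate number was seen: deviations of same-numbered libraries correlated at -0.04 to 0.03 over 15 pairs of groups. Counting noise lowers such correlations, so they cannot exclude that same-numbered libraries share a culture, on which the labels are silent. With a replicate block the members called between fractions were 4 at 0 h, 1 at 6 h, 1 at 24 h and 4 for the mean. In edgeR fits of single transcripts the upstream one of Rian was not called at 24 h against 0 h in tbGFP-positive cells (adjusted p = 0.879). Neither the main (adjusted p = 0.580) nor the minor transcript of Zfp57 (0.569) was called between fractions at 24 h.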

Other observations

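Imprinted genes outside the Dlk1-Dio3 cluster were also examined between fractions. Of 20 tested paternally expressed genes, 2 were higher and none lower in tbGFP-positive cells at 0 h, Plagl1, a zinc finger transcription factor (log2 difference 3.79 ± 0.88, edgeR's quasi-likelihood test, adjusted p = 0.0116), and Magel2, a ubiquitin ligase regulator of the Prader-Willi region (1.88 ± 0.48, adjusted p = 0.0222). Plagl1 averaged 8.72 ± 0.952 CPM in tbGFP-positive cells at 0 h and was near the floor in tbGFP-negative cells, at 0.454 ± 0.643 CPM (SD, n = 2 each). Over all tested genes 6.66% were higher and 0.449% lower at 0 h. At 6 h 4 were higher and none lower, where 6.92% and 5.22% of all tested genes were, and DESeq2 called 6. Those that edgeR called included Magel2 (2.64 ± 0.50, adjusted p = 0.00238) and its neighbour Mkrn3 (1.54 ± 0.35, adjusted p = 0.00986). The list's median log2 difference at 0 h was -0.12, against 0.00 over all tested genes. Of 19 tested maternally expressed genes, Dhcr7, a sterol reductase, and Igf2r, the receptor that clears IGF2, were higher at 0 h and none was lower. The Igf2r call (0.68 ± 0.16, adjusted p = 0.0117) was lost with upper-quartile factors (0.306) and library totals (0.394).

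At 6 h against 0 h, 3 of the 20 paternally expressed genes rose and 1 fell in tbGFP-positive cells, and 2 rose and 2 fell in tbGFP-negative cells. Over all tested genes 2.14% rose and 3.76% fell in tbGFP-positive cells, and 3.22% rose and 1.21% fell in tbGFP-negative cells. DESeq2 called 5 and 7 of the 20 in either direction. Peg3, a zinc finger protein, rose by 2.34 ± 0.35 in tbGFP-positive cells (adjusted p = 0.00281) and by 1.71 ± 0.35 in tbGFP-negative cells (adjusted p = 0.0109) on the log2 scale. Kcnq1ot1, a long noncoding RNA that silences its neighbours, fell by 0.70 ± 0.18 in tbGFP-positive cells (adjusted p = 0.0336) and by 1.09 ± 0.18 in tbGFP-negative cells (adjusted p = 0.00273).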
